A study of Mus musculus with 16 samples.

Results

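The effect of THZ1 on hearts without pressure overload was read from 8 libraries of ventricle RNA, 4 from sham-operated mice given vehicle (Sham-Veh) and 4 from sham-operated mice given THZ1 (Sham-THZ1). They are 8 of the 16 mouse libraries of the series and were chosen by their labels alone. All came from wild-type male C57BL/6J mice, 10 to 12 weeks old when operated, and the sham operation follows the steps of transverse aortic constriction (TAC) without the suture that narrows the aorta. THZ1 was injected intraperitoneally at 10 mg/kg in 2 doses a day from day 1 to day 60, per the labels, and Sham-Veh mice received the vehicle. The other 8 libraries came from TAC mice given vehicle (TAC-Veh, n = 4) or THZ1 on the same schedule (TAC-THZ1, n = 4), and they are used below only for comparison with the sham libraries. The RNA is that of a whole piece of ventricle, so fewer cells of a type and less RNA per cell cannot be told apart.

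THZ1 is a covalent inhibitor of Cdk7 and, through related cysteines, of Cdk12 and Cdk13. Cdk7 sits in the general transcription factor TFIIH and phosphorylates the tail of RNA polymerase II at the start of transcription, while Cdk12 and Cdk13, with cyclin K, phosphorylate it during elongation. Short-lived transcripts, such as those of immediate early genes, and long genes are the classes usually most sensitive to acute loss of these kinases.

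The sham libraries held 21431703 to 35812869 reads in genes, of which mitochondrial genes took 37.1 to 41.0%. Cardiomyocyte markers were abundant in every library, with 468904 to 528707 normalized counts of Myh6 in Sham-Veh and 485692 to 516004 in Sham-THZ1, and the 5 lung epithelium markers together reached at most 1.06 normalized counts. The normalized count is the number of reads per gene divided by a size factor of the library. Of 22372 genes, 12993 reached a normalized count of 10 in at least 4 of the 8 libraries and were tested with limma on log2(normalized count + 1), with Benjamini-Hochberg adjustment over all of them and a threshold of 0.05.

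Most genes called between Sham-THZ1 and Sham-Veh differed by small steps. In Sham-THZ1, 290 genes (2.23% of those tested) were higher and 183 (1.41%) were lower, together 3.64%, and the median absolute log2 fold change of these 473 genes was 0.29, with quartiles of 0.21 and 0.41. Only 21 of them differed by 1 or more on the log2 scale, 6 higher and 15 lower. In 428 of the 473 genes the 4 Sham-THZ1 values lay wholly above or below the 4 Sham-Veh values, which was true of 11.6% of all genes tested (6.45% with THZ1 higher and 5.13% with THZ1 lower). The median log2 fold change of all genes tested was 0.00, and 51.1% of them lay above 0.

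The number of calls rested on the spread taken for the test. A single fit of all 16 libraries called 3 genes higher and 6 lower, all 9 among the 473, and genes varied less among the sham libraries, with a median SD per gene (log2 scale) of 0.096 for Sham-Veh and 0.089 for Sham-THZ1 but 0.21 for TAC-Veh and 0.14 for TAC-THZ1. Leaving out 1 sham library at a time gave 73 higher and 48 lower genes (without Sham-THZ1 replicate 1) to 632 and 377 (without Sham-Veh replicate 4).

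**Figure D1:**
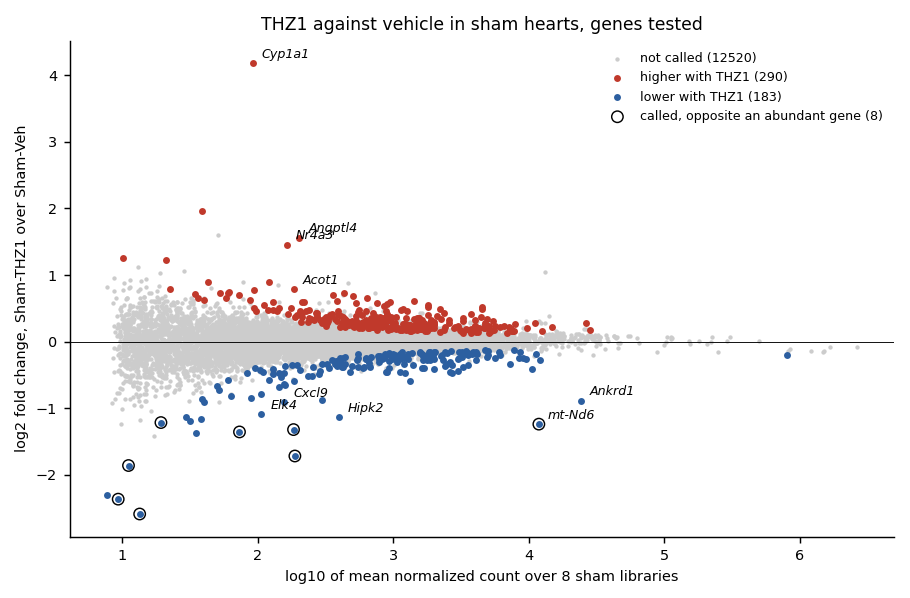
Log2 fold change of Sham-THZ1 over Sham-Veh (y axis) against the log10 mean normalized count over the 8 sham libraries (x axis) for the 12993 genes tested, with the 290 genes called higher in red, the 183 called lower in blue and, circled, the 8 called genes that overlap a far more abundant gene on the other strand. Most coloured points lie within 1 of 0, and Cyp1a1 stands alone at 4.18.

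On the first principal component of the 500 most variable genes, which held 30.5% of the variance of the sham libraries, the groups did not overlap. Sham-Veh lay at -8.16, -8.15, -7.76 and -3.29 and Sham-THZ1 at 6.07, 9.48, 6.40 and 5.41. The exact two-sided permutation test gave p = 0.0286, the smallest that 4 against 4 allows (adjusted 0.0381 over 8 library measures), and on the second component it gave p = 0.629. Sham-Veh replicate 4 was nearest to the treated libraries, and in 122 of the 473 called genes its value lay past the midpoint between the other Sham-Veh libraries and Sham-THZ1, compared with 9 to 69 for the other 7 libraries.

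The library difference also followed the base composition of the genes. Genes called higher had a median GC content of 55.5% and genes called lower one of 46.3%, against 50.4% over all genes tested. When the tested genes were split into 10 equal bins by GC content, the richest bin held 84 genes called higher and 0 called lower, and the poorest held 5 and 46. The median of GC-rich genes minus that of GC-poor genes (the outer 25% on each side, log2 scale) was -0.087, -0.066, -0.073 and 0.017 in Sham-Veh and 0.11, 0.064, 0.054 and 0.096 in Sham-THZ1, so it separated the groups, with Sham-Veh replicate 4 again nearest to THZ1. The TAC groups did not overlap either, at -0.117 to 0.0084 in TAC-Veh and 0.014 to 0.040 in TAC-THZ1. Genes called lower were also long, with a median span of 77.5 kb against 24.1 kb over all genes tested and 19.0 kb for genes called higher. When the trends with GC content and gene span were removed from each library, 147 genes were higher and 111 lower (1.99% of those tested), 219 of them among the 473. This alternative was added once the data had been seen. The part of GC content in the changes below was not tested beyond this correction, and the main gene groups are given with their counts after it. The gene lists used below were chosen with earlier results of these data known. Their counts beside those of all genes are therefore no independent support.

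**Figure D2:**
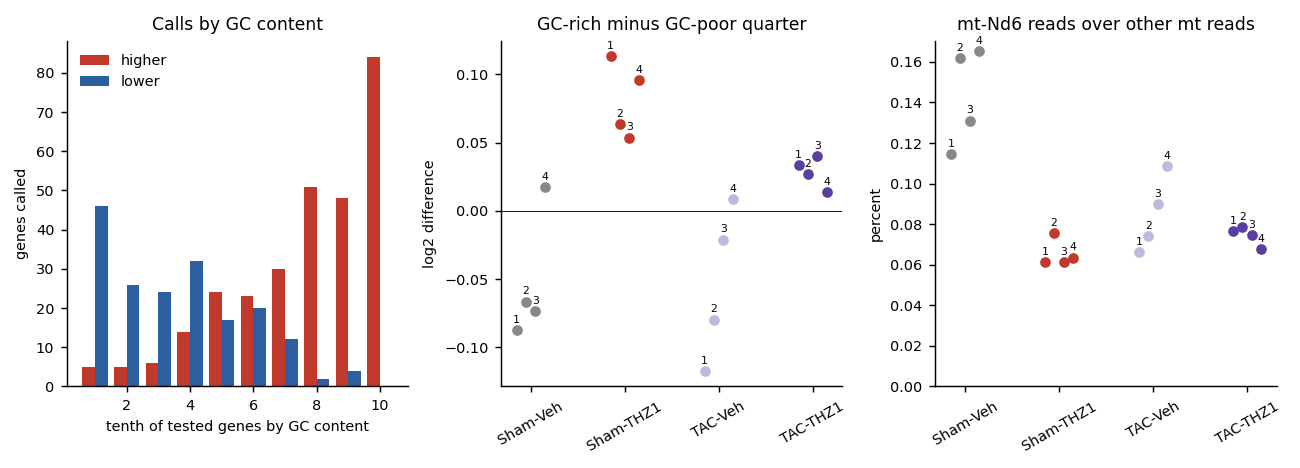
Left, genes called higher (red) and lower (blue) in sham hearts by bin of GC content, from GC-poor (1) to GC-rich (10). Middle and right, for each library by group and replicate number, the log2 difference between GC-rich and GC-poor genes and mt-Nd6 reads as a percentage of the other mitochondrial reads: Sham-THZ1 lies above Sham-Veh in the first, at 0.054 to 0.11 against at most 0.017, and below it in the second. In the middle panel TAC-THZ1 also lies above TAC-Veh, at 0.014 to 0.040 against at most 0.0084.

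Cyp1a1 had the largest change. It encodes a cytochrome P450 that is the best known target of the aryl hydrocarbon receptor, and lies on chromosome 9 at 57545420 to 57551629 (NCBIM37, + strand). The 4 Sham-Veh libraries had 9.55, 3.21, 8.84 and 16.1 normalized counts and the 4 Sham-THZ1 libraries had 115, 256, 143 and 187. Every treated library was thus above every control, by 18.1-fold on the log2(value + 1) scale (log2 fold change 4.18, SE 0.35, limma adjusted p 2.47e-05), and the call held in 26 of 26 alternatives. Of 14 aryl hydrocarbon receptor targets and regulators, 9 were tested, and no other was called. Over all genes tested 2.23% were called higher and 1.41% lower. Cyp1b1 had a log2 fold change of 0.26 (adjusted p 0.133), Ahrr -0.46 (0.0999) and Tiparp -0.03 (0.862), while Cyp1a2 was too low to test. The 250 bases before the Cyp1a1 start are shown because this is the only promoter of the list whose gene was called. Capitals mark GCGTG, the core of the xenobiotic response element to which the receptor binds, searched on both strands. It begins 54 bases before the start, and 28.2% of 32851 promoter windows of this length hold one (RefSeq, GRCm38.p6, chr9:57697363-57697612, + strand).
Cyp1a1: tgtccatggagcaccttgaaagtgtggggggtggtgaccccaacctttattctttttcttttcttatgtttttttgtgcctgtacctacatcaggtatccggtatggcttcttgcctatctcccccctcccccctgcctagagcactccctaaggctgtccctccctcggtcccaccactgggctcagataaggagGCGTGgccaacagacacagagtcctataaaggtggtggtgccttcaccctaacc

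Immediate early genes are those whose transcripts rise within minutes of a stimulus. Of 30 listed genes, 28 were tested and 5 passed, all higher, against 2.23% of all genes tested. Of the 28, 24 lay above 0, compared with 51.1% of all genes, and the median log2 fold change was 0.33. The called genes were Nr4a3, Atf3, Fosl2, Btg2 and Jun. Nr4a3, an orphan nuclear receptor of chromosome 4 (48058025 to 48099319), had 84.9, 70.6, 103 and 91.9 normalized counts in Sham-Veh and 253, 258, 223 and 229 in Sham-THZ1. The groups were far apart relative to their spread, with means of 87.7 ± 13.7 and 241 ± 17.4 (SD, n = 4), a 2.75-fold rise (log2 fold change 1.46, SE 0.11, limma adjusted p 2.47e-05) that held in 26 of 26 alternatives.

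Atf3, a stress-induced transcription factor, had 90.2, 53.7, 56.6 and 78.1 in Sham-Veh and 137, 128, 104 and 102 in Sham-THZ1, a log2 fold change of 0.77 (SE 0.16, limma adjusted p 0.0228). Fosl2 rose by 0.46 (adjusted p 0.0316), Btg2, an antiproliferative factor, by 0.36 (0.0343) and Jun by 0.21 (0.0424). In Fosl2 and Btg2 the groups overlapped through Sham-THZ1 replicate 4, which lay at 564 and 768. Fos and Nr4a1 had higher means in Sham-THZ1, with log2 fold changes of 0.90 and 0.88, but adjusted p-values of 0.219 and 0.274. After removal of the GC and span trends, 4 genes of the group were higher and 1, Ier3, was lower, with a list median of 0.27. A fit of all 16 libraries called 1. The count of 5 fell to 1 or 2 without any single one of replicates 1, 2 and 3 of either group, and was 7 without Sham-Veh replicate 4 and 9 without Sham-THZ1 replicate 4. The Nr4a3 promoter is shown because it holds several copies of TGACG (in capitals, with CGTCA on the other strand), the core of the cyclic AMP response element by which stimulus-dependent genes are often driven. The copies begin 231, 213, 205 and 147 bases before the start, and 17.8% of promoter windows hold at least 1 (RefSeq, GRCm38.p6, chr4:48045055-48045304, + strand).
Nr4a3: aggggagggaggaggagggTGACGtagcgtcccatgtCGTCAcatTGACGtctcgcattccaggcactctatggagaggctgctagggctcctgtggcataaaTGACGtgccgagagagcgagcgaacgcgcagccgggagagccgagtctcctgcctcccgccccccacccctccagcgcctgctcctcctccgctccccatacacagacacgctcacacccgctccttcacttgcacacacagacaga

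**Figure D3:**
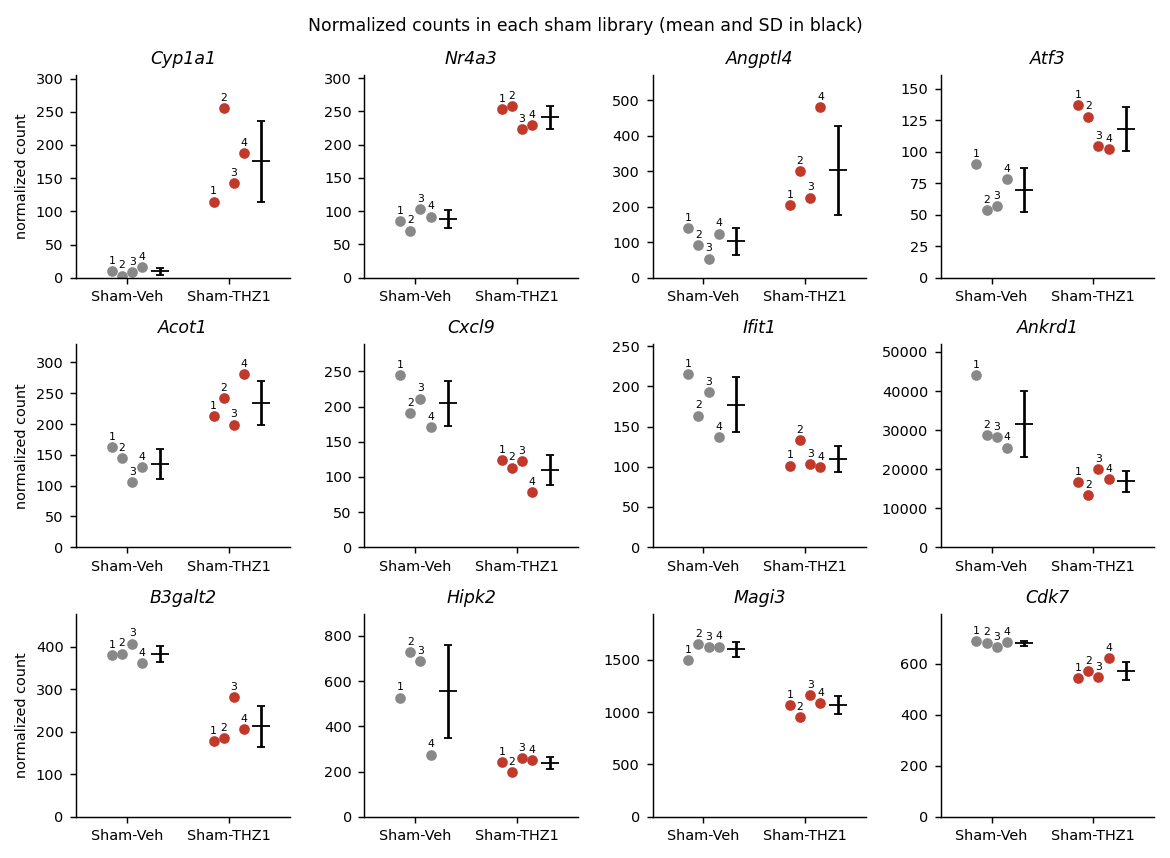
Normalized counts (y axis, from 0) of 12 genes in each of the 4 Sham-Veh (grey) and 4 Sham-THZ1 (red) libraries, numbered by replicate, with the mean and SD in black. Cyp1a1, Nr4a3, Angptl4, Atf3 and Acot1 are higher in all treated libraries and the other genes lower, and Hipk2 in Sham-Veh replicate 4 lies at 275, close to the treated values.

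Of 16 glucocorticoid response genes, a list that includes the receptors, 6 were called higher and 2 lower, against 2.23% and 1.41% of all genes tested. The list median was 0.32, and 11 of the 16 lay above 0. Angptl4, a secreted inhibitor of lipoprotein lipase that also belongs to the fatty acid genes, had 140, 92.2, 53.9 and 124 normalized counts in Sham-Veh and 205, 300, 226 and 481 in Sham-THZ1. All treated libraries were higher, although they varied widely, and the log2 fold change was 1.56 (SE 0.28, limma adjusted p 0.0113). The metallothioneins Mt1 and Mt2, which bind zinc and copper, rose by 0.52 (adjusted p 0.00515) and 0.69 (0.0321), and the Mt1 means were 1472 ± 58.6 and 2132 ± 292 (SD, n = 4). Cdkn1a, an inhibitor of cyclin-dependent kinases, rose by 0.72 (adjusted p 0.0358), Errfi1, a feedback inhibitor of the EGF receptor, by 0.59 (0.0276) and Lcn2 by 0.89 (0.0482). In Cdkn1a and Errfi1 the groups overlapped. Sham-Veh replicate 4 lay at 411 and 510, above Sham-THZ1 replicate 3 at 369 for Cdkn1a and replicate 4 at 483 for Errfi1.

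Among the list members without a call, Fkbp5, Tsc22d3 and Zbtb16 had log2 fold changes of 0.20, -0.06 and 0.03 (adjusted p 0.517, 0.858 and 0.960). They were picked for naming after their values were seen. The receptors themselves were lower, the glucocorticoid receptor Nr3c1 by -0.21 (adjusted p 0.0199) and the mineralocorticoid receptor Nr3c2 by -0.39 (0.0405). After removal of the GC and span trends 3 genes were higher and 0 lower, while the list median was 0.33 and Cdkn1a, Mt2 and Lcn2 had log2 fold changes of 0.68, 0.65 and 0.86 (adjusted p 0.0546, 0.0557 and 0.0759). A fit of all 16 libraries called 0 of the list, and leaving out single libraries gave 2 higher (without Sham-THZ1 replicate 1 or 2, or Sham-Veh replicate 2 or 3) to 7 (without Sham-Veh replicate 4), with 3 without Sham-THZ1 replicate 4.

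Lcn2 is also a neutrophil marker, the only one called of 5 tested from a list of 9. All 5 lay above 0, and their summed level was 99.7 to 154 normalized counts in Sham-Veh and 165 to 671 in Sham-THZ1, the highest in replicate 2. In that library S100a8 and S100a9, which encode calprotectin, stood at 125 and 235 against 12.2 to 38.2 in the other treated libraries, and neither passed the test (adjusted p 0.279 and 0.132). Of the defining neutrophil genes Ly6g was at 0 in all 8 libraries and Camp in 7 of them. The part of neutrophils in the change of Lcn2 was not tested.

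Fatty acid uptake and oxidation is the main fuel pathway of the adult heart. Of 32 of its genes, 7 were called, all higher, against 2.23% of all genes tested. Of the 32, 29 lay above 0, compared with 51.1% of all genes, and the list median was 0.11. Acot1, an acyl-CoA thioesterase induced by the receptor PPARα, had 162, 144, 105 and 130 normalized counts in Sham-Veh and 214, 242, 199 and 281 in Sham-THZ1, without overlap and with a log2 fold change of 0.79 (SE 0.13, limma adjusted p 0.00865). Plin5, a coat protein of lipid droplets next to mitochondria, rose by 0.32 (adjusted p 0.0242), the fatty acid transporter Slc27a1 by 0.31 (0.0396), Esrra, a nuclear receptor for mitochondrial genes, by 0.21 (0.0210), and the mitochondrial carnitine carrier Slc25a20 by 0.14 (0.0369). Ech1, an enzyme of unsaturated fatty acid oxidation, was among the most even, with 25940 to 27359 in Sham-Veh and 29451 to 30830 in Sham-THZ1 (0.18, adjusted p 0.0111). Pdk4, which turns the heart from glucose to fat, had means of 8857 and 17550 and a log2 fold change of 1.05, but an adjusted p of 0.0624. After removal of the GC and span trends 3 genes were higher, Angptl4, Acot1 and Ech1, and the list median was 0.09. A fit of all 16 libraries called 0. Leaving out single libraries gave 3 (without Sham-THZ1 replicate 1 or 2, or Sham-Veh replicate 3), 4 (without Sham-THZ1 replicate 4) or between 5 and 9.

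Of 38 nuclear subunits of the respiratory chain 34 lay above 0, with a median of 0.06, and 0 were called. After removal of the GC and span trends 1 was higher, Ndufa1. Among 12 mitochondrially encoded genes tested, 3 were lower, mt-Nd6, mt-Atp6 and mt-Co2, against 1.41% of all genes tested. Of the 12, 11 lay below 0, while 51.1% of all genes tested lay above 0. Mitochondrial reads took 40.3 ± 0.64% of reads in Sham-Veh and 38.1 ± 1.08% in Sham-THZ1 (SD, n = 4), without overlap (exact two-sided permutation test, p = 0.0286, adjusted 0.0381 over 8 library measures). After the correction for GC and span, mt-Nd6 alone of the 12 was called, lower.

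Of 24 interferon response genes tested, 6 were lower and 0 higher, against 1.41% and 2.23% of all genes tested. All 24 lay below 0, with a median of -0.26. The 6 that passed the test were Cxcl9, Ifit1, Ifit3, Ifit2, Oasl2 and Irgm1. Cxcl9, a chemokine that attracts T cells and is induced by interferon-gamma, had 245, 191, 211 and 171 normalized counts in Sham-Veh and 124, 113, 123 and 78.0 in Sham-THZ1, without overlap (log2 fold change -0.91, SE 0.15, limma adjusted p 0.00691). Ifit1, which binds viral RNA, had 215, 164, 193 and 137 in Sham-Veh and 101, 133, 103 and 99.3 in Sham-THZ1 (-0.68, SE 0.14, adjusted p 0.0188). Ifit3 fell by 0.53, Ifit2 by 0.45, Oasl2 by 0.44 and Irgm1, an immunity-related GTPase, by 0.26 on the log2 scale (adjusted p 0.0295, 0.0160, 0.0392 and 0.0479). In each of these 6 genes the groups did not overlap.

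The count was 5 after removal of the GC and span trends, with a list median of -0.27, and 0 in a fit of all 16 libraries. It fell to 1 without Sham-THZ1 replicate 1, to 2 without Sham-THZ1 replicate 2 or Sham-Veh replicate 3 and to 3 without any other library but Sham-Veh replicate 4, without which it was 8. Summed macrophage markers spanned 6703 to 8075 in Sham-Veh and 6547 to 8222 in Sham-THZ1, with 0 of 9 called. Summed B cell markers were low and did not overlap, at 84.0 to 102 in Sham-Veh and 56.1 to 77.8 in Sham-THZ1. All 5 lay below 0, with a median of -0.37, and 0 were called. The part of B cells in the interferon result was not tested. The promoters of 3 called genes are shown because each holds the repeat of the interferon stimulated response element, GAAA and after any 2 bases GAAA again (TTTC on the other strand), both in capitals, which 2.98% of promoter windows hold at least once. The windows of Ifit2, Oasl2 and Cxcl9 did not hold these letters. Those shown come from RefSeq on GRCm38.p6, at chr19:34640639-34640888 (+) for Ifit1, chr19:34583279-34583528 (+) for Ifit3 and chr11:48871421-48871670 (- strand) for Irgm1, in which 2 copies overlap.
Ifit1: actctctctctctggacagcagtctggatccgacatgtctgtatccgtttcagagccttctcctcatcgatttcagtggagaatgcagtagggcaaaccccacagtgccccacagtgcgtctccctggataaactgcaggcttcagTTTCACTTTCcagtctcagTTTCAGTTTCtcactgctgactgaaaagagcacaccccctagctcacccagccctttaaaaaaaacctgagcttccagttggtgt
Ifit3: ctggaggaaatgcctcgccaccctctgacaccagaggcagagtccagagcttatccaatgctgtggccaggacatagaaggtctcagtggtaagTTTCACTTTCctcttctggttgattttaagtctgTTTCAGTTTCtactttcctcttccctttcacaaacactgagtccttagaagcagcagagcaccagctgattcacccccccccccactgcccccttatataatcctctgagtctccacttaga
Irgm1: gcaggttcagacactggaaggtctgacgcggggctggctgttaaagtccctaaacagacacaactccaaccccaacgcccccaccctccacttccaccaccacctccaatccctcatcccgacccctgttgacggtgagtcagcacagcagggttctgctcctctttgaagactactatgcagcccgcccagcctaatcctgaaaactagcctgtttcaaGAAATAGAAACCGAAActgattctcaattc

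**Figure D4:**
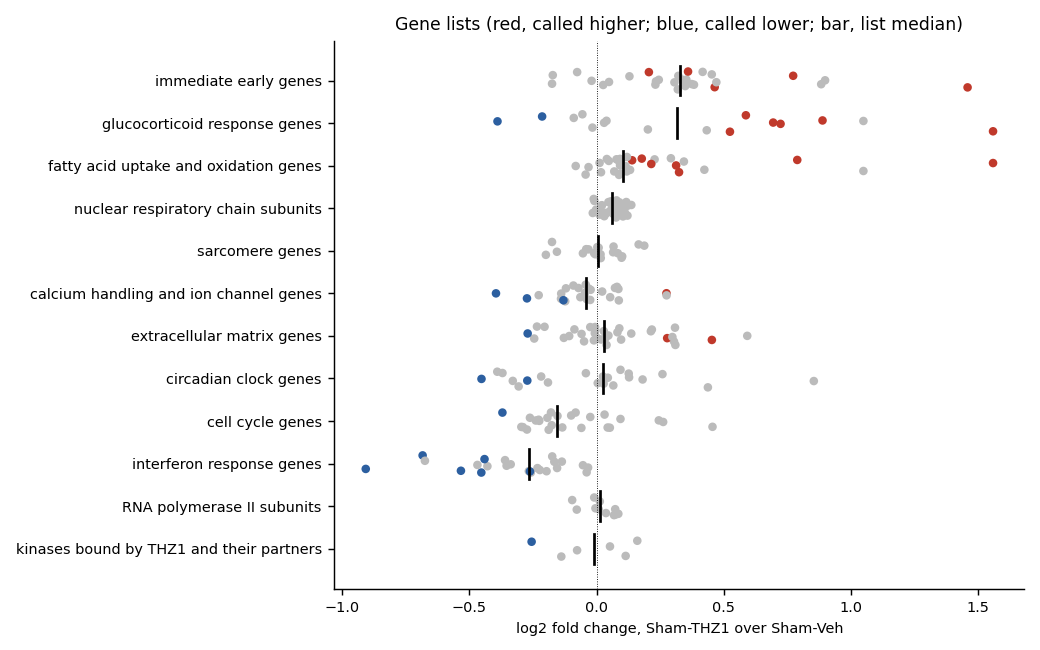
Log2 fold change of Sham-THZ1 over Sham-Veh (x axis) for the tested members of 12 gene lists (rows), with called genes in red (higher) or blue (lower), others in grey, a black bar at each list median and a dotted line at the median of all genes tested. Immediate early genes lie mostly to the right, with a median of 0.33, and all interferon response genes to the left, with a median of -0.26.

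A panel of 7 stress genes was assembled from genes named in connection with the TAC hearts of the series, so it is not independent of these data. Of the 7, 2 were called lower, against 1.41% of all genes tested, and 2 also after removal of the GC and span trends. Ankrd1, a cardiomyocyte co-regulator induced by stretch, had 44102, 28613, 28285 and 25500 normalized counts in Sham-Veh and 16750, 13417, 19931 and 17408 in Sham-THZ1. The groups were apart although Sham-Veh replicate 1 was far above the others, and the log2 fold change was -0.89 (SE 0.14, limma adjusted p 0.00675). Nppb, the precursor of brain natriuretic peptide, fell from 3445 ± 502 to 2532 ± 206 (SD, n = 4), by 0.44 (adjusted p 0.0189). Nppa, Ctgf, Postn and Xirp2 had log2 fold changes of -0.08, -0.12, -0.11 and -0.11, and Rcan1 had 0.23 (adjusted p 0.0634).

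Of the kinases that THZ1 binds, Cdk7 was lower. Its values were 690, 683, 666 and 685 in Sham-Veh and 545, 572, 546 and 621 in Sham-THZ1, a log2 fold change of -0.26 (SE 0.05, limma adjusted p 0.0210), with an adjusted p of 0.0506 after removal of the GC and span trends. Cdk12 had 0.16 (adjusted p 0.129) and Cdk13 0.05 (0.603). Of 11 subunits of RNA polymerase II, 7 core subunits of TFIIH and 11 other transcription kinases and partners, 0 were called in each list, and the list medians lay between -0.03 and 0.01. Since 1.41% of all genes tested were called lower and 2.23% higher, 0 calls in lists of this size do not set them apart. The 16 long DNA repair genes tested had a median of -0.15, with 12 below 0 and 0 called, while 51.1% of all genes tested lay above 0.

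Apart from genes that overlap a far more abundant gene on the other strand, which are described further on and include larger falls, the largest falls at a mean of 50 or more normalized counts and without overlap between the groups included those of Hipk2 and Elk4. Hipk2, a kinase of stress signalling, had 527, 727, 689 and 275 normalized counts in Sham-Veh and 241, 199, 259 and 250 in Sham-THZ1 (log2 fold change -1.13, SE 0.22, limma adjusted p 0.0184). Elk4, a partner of serum response factor, had 141, 163, 210 and 77.0 against 69.2, 71.7, 56.1 and 63.8 (-1.09, adjusted p 0.0210). In both genes Sham-Veh replicate 4 was close to the treated libraries. B3galt2, a galactosyltransferase, did not share that pattern, with 362 to 407 in Sham-Veh and 178 to 282 in Sham-THZ1 (-0.87, adjusted p 0.00226). Map2k6, which activates p38 kinases, fell by 0.84 (adjusted p 0.0117), Ston2, an endocytic adaptor, by 0.81 (0.0119), the polyglutamine protein gene Atxn1 by 0.78 (0.0287) and Tnfaip8l1 by 0.72 (0.0433). At a mean of 50 or more normalized counts, the largest rises beside those above were in Rtn4r, a receptor for myelin proteins, from 85.5 to 159, Tcf23 from 45.9 to 77.2, Tmem171 from 45.0 to 75.5 and the kinase Sbk2 from 54.6 to 91.0 (means, limma adjusted p 0.0276, 0.0151, 0.00916 and 0.0371). Cdo1, a cysteine dioxygenase, rose by 0.74 (0.0316).

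Other genes were among those with the smallest adjusted p-values. Grip2, a scaffold for receptors, had 562 to 656 normalized counts in Sham-Veh and 877 to 935 in Sham-THZ1 (log2 fold change 0.58, SE 0.05, limma adjusted p 6.18e-05). Eng, the endothelial co-receptor endoglin, had 3668 to 4097 against 4900 to 5557 (0.48, adjusted p 9.46e-05), while the endothelial markers Pecam1 and Cdh5 had 0.12 and 0.12 (adjusted p 0.182 and 0.310). Of 8 endothelial markers 7 lay above 0 (list median 0.09), and of 4 endocardial markers 4 did (0.22), with 0 called in each list. Over all genes tested 51.1% lay above 0. The part of these cells in the change of Eng was not tested. Efnb1, a ligand of Eph receptors, rose by 0.65 (adjusted p 7.60e-04) and was called in 26 of 26 alternatives. Fbln1, an extracellular matrix protein, rose by 0.40 (0.00109), the amino acid transporter Slc38a3 by 0.43 (0.00157), and Srebf1, a regulator of lipid synthesis, by 0.53 (0.00204). Ahdc1 rose by 0.57 (2.23e-04) and the metalloprotease Adamts15 by 0.60 (0.00402).

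Among the lower genes, Magi3, a scaffold of cell junctions, had 1498 to 1649 in Sham-Veh and 955 to 1159 in Sham-THZ1 (-0.59, SE 0.06, limma adjusted p 9.46e-05). Lmod3, which nucleates actin in sarcomeres, fell by 0.46 (adjusted p 0.00213), the muscarinic receptor Chrm2 by 0.46 (0.00431) and Cacnb2, a subunit of the L-type calcium channel, by 0.39 (0.00544). Ehbp1, Ahnak, Gpcpd1, Pik3ip1, an inhibitor of PI3 kinase, and Apbb2 fell by 0.42, 0.26, 0.33, 0.47 and 0.34 (limma adjusted p 2.23e-04, 0.00431, 0.00461, 0.00559 and 0.00559). Of 25 genes of calcium handling and ion channels, 3 were lower, Cacnb2, Gja1 and Trdn, and 1 was higher, Jph2, against 1.41% of all tested genes lower and 2.23% higher. After removal of the GC and span trends 2 were lower and 0 higher, with Trdn at -0.018 (adjusted p 0.848) and Jph2 at 0.16 (0.0947). Of 20 sarcomere genes 0 were called and the median was 0.01, and after removal of both trends 2, Mybpc3 and Tcap, were lower.

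The calls of the other lists are read against 2.23% of all genes tested called higher and 1.41% called lower. Of 21 clock genes Per3 and Nr1d2 were lower (-0.45 and -0.27, adjusted p 0.0300 and 0.0276), and the activator Arntl had 0.85 with an adjusted p of 0.0619. Among 33 extracellular matrix genes Lox and Fn1 were higher and Lum lower, among 16 cardiac transcription factors Hand2, Srf and Mef2d were higher and Mef2c lower, and among 25 cell cycle genes Ccnd2 was lower. After removal of the GC and span trends the counts for clock, matrix and cell cycle genes were the same, with Dbp in place of Nr1d2 among the clock genes, and 0 cardiac transcription factors were called (adjusted p 0.137 for Hand2, 0.186 for Srf, 0.0893 for Mef2d and 0.198 for Mef2c). In each, 1 gene was called among 17 p53 targets (Cdkn1a), 20 chaperone genes (Hsf1), 22 glucose genes (Gys1) and 50 ribosomal protein genes (Rps9), all higher, and after removal of both trends 0 were called in each of these lists. There were 0 calls among 15 genes of the integrated stress response and 6 replication-dependent histone genes. Summed fibroblast markers spanned 53533 to 59991 in Sham-Veh and 56787 to 60515 in Sham-THZ1, and summed endothelial markers 37740 to 41432 and 40679 to 44344. Of 18 cell type lists, calls were made in the fibroblast (Lum, lower), smooth muscle and pericyte (Abcc9, lower) and neutrophil (Lcn2, higher) lists, 1 gene in each. Log2 fold changes of the markers fixed for naming were 0.00 to 0.01 for Myh6 and Tnnt2 (cardiomyocytes), 0.01 and 0.22 for Pdgfra and Col1a1 (fibroblasts), 0.07 and 0.25 for Npr3 and Vwf (endocardium), 0.17 and 0.21 for Acta2 and Tagln (smooth muscle), -0.04 and -0.02 for Csf1r and Emr1 (macrophages), and 0.23 and 0.40 for the adult globins Hbb-b1 and Hbb-b2. In lists with few reads they were -0.37 for Cd79a (B cells), 0.03 and 0.39 for Pf4 and Ppbp (platelets), 0.26 for Myl4 (atrium), 0.28 for Hcn4 (conduction system), 0.05 for Wt1 (epicardium) and -0.48 for Myh2 (skeletal muscle). None of these passed the test.

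A set of lower genes overlapped abundant genes on the other strand. Of 137 tested genes that lie opposite a gene over 20 times more abundant, 8 were called, all lower. Over all genes tested 1.41% were called lower and 2.23% higher. Of the 137, 86 lay below 0, with a median log2 fold change of -0.07, while 51.1% of all genes tested lay above 0. mt-Nd6, the only protein-coding gene on its strand of the mitochondrial genome, had 13087, 18386, 15585 and 19884 normalized counts in Sham-Veh and 6945, 7808, 6782 and 6524 in Sham-THZ1. As a share of the other mitochondrial reads it was 0.115, 0.162, 0.131 and 0.165% in Sham-Veh and 0.0613, 0.0756, 0.0614 and 0.0635% in Sham-THZ1 (exact two-sided permutation test, p = 0.0286, adjusted 0.0381 over 8 library measures). This share was chosen as a measure with earlier results of these data known, in which genes opposite abundant genes were among those lower. Its p-value is therefore no independent support.

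AF085738, which lies opposite Gnas, had a mean of 288 normalized counts in Sham-Veh and 88.5 in Sham-THZ1, and A930016O22Rik, opposite the muscle creatine kinase gene Ckm, had 263 and 105. In the TAC libraries these genes were near the level of Sham-THZ1 with or without the drug, at 116 and 101 for AF085738 and 102 and 110 for A930016O22Rik in TAC-Veh and TAC-THZ1. Sham-Veh was thus the group that stood apart. Map3k15, opposite Pdha1, had means of 106 in Sham-Veh and 41.4 in Sham-THZ1, and 1700119I11Rik, opposite Ckmt2, had 23.6 and 3.42. The host gene Ckm had 43102 ± 1944 and 44773 ± 1638 (SD, n = 4, limma adjusted p 0.467). Reads of such genes and of their partners on the other strand can be separated only as far as the strand marking of the library kit allows. The study names alternative kits and does not say which library had which. How far the strands were separated in each library was not tested.

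The response differed in part from that of TAC hearts. A fit of TAC-THZ1 against TAC-Veh alone, which shares no library with the sham comparison, called 1323 genes (10.2% of those tested), 4.36% higher and 5.83% lower. It called 93 of the 473 sham genes, which are 19.7% of the sham calls and 7.03% of the TAC calls, 69 in the same and 24 in the opposite direction. Of the genes higher in sham hearts 60.3% had the same sign after TAC, and of the lower genes 54.6%, against 54.2% of all genes tested. The interaction, which tests the difference between both THZ1 effects in one fit of 16 libraries, was called for 1304 genes (10%), 126 of them among the 473.

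Cyp1a1 rose in both. The TAC-Veh libraries had 0, 0, 5.94 and 0 normalized counts and the TAC-THZ1 libraries 1541, 1528, 850 and 1006. With 3 control libraries at 0, the log2 fold change of 9.52 after TAC and the interaction of 5.34 (SE 0.76, limma adjusted p 0.00208) depend on the pseudocount of 1 and are no measure of the size. Acot1 and Grip2 also rose in both, and Ankrd1 and Elk4 fell in both, by 1.07 and 1.07 after TAC, with interactions of -0.18 and 0.02 (adjusted p 0.699 and 0.983). Of the 24 genes with opposite directions, 20 were higher with THZ1 in sham hearts and lower after TAC. Nr4a3 rose by 1.46 in sham hearts and fell by 0.97 after TAC (interaction -2.43, adjusted p 0.00177), Angptl4 rose by 1.56 and fell by 1.96 (-3.52, 0.00225), and Atf3 rose by 0.77 and fell by 1.47 (-2.24, 0.00733). The collagen cross-linking enzyme Lox rose from 118 to 161 normalized counts in sham hearts and fell from 2332 to 185 after TAC (-3.65, 0.00395). Fn1 and the growth factor Hbegf likewise rose by 0.28 and 0.34 in sham hearts and fell by 1.66 and 1.45 after TAC, and Grk5, a kinase of G protein-coupled receptors, rose by 0.34 and fell by 0.77, with an interaction of -1.11. Srxn1, which repairs oxidized peroxiredoxins, rose by 0.33 in sham hearts with an interaction of -0.71.

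For the gene lists, interactions are read against the 10% of all genes tested. The median of the immediate early genes was 0.33 in sham hearts and -0.47 after TAC, where 0 were higher and 5 lower, with 7 of 28 interactions called. That of the extracellular matrix genes was 0.03 and -1.66, with 0 higher and 28 lower after TAC and 29 of 33 interactions. For interferon response genes the medians were -0.26 and 0.21, with 0 called after TAC and 1 of 24 interactions, that of Cxcl9, which is below the share of all genes. For fatty acid genes the medians were 0.11 and 0.45, with 9 higher and 1 lower after TAC and 5 of 32 interactions.

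**Figure D5:**
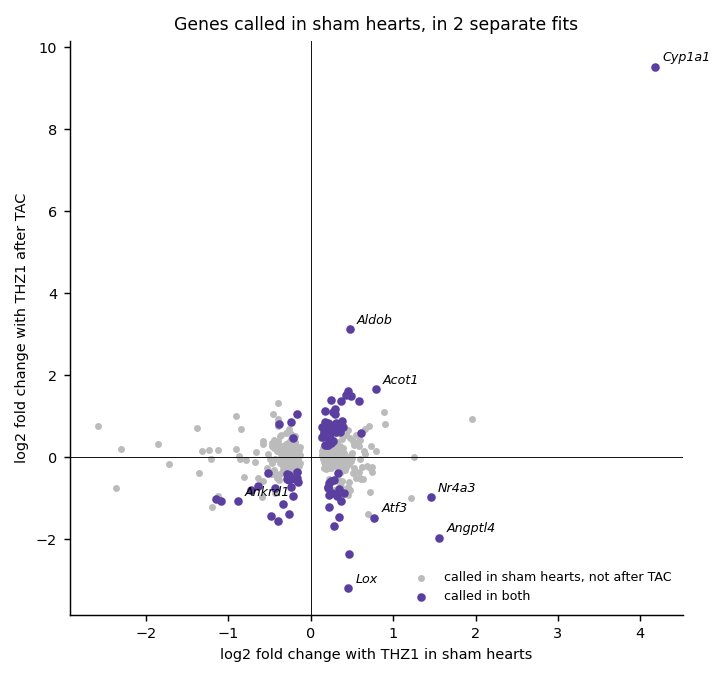
Log2 fold change with THZ1 after TAC (y axis) against that in sham hearts (x axis) for the 473 genes called in sham hearts, each from a fit of its own 8 libraries, with the 93 genes called in both in purple. Cyp1a1 lies at 4.18 and 9.52 (the latter set by the pseudocount), and Nr4a3, Angptl4, Atf3 and Lox lie at the lower right, higher in sham hearts and lower after TAC.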

How the data were processed

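Per the study's methods, the authors aligned single-end reads of a stranded mRNA library to the mm9 mouse genome with TopHat2 2.1.1, assigned them to GENCODE genes with htseq-count in reverse-stranded mode, and divided each library's counts by a DESeq2 size factor estimated over all mouse libraries. What the authors deposited is thus a signal, the size-factor-normalized count, and not raw counts. Each value was a whole multiple of its library's smallest step, so dividing by that step recovered whole reads for 100% of the values in the sham libraries (tolerance 0.01), in total 21431703 to 35812869 per library. Libraries were grouped by their titles. Replicates are libraries labelled as separate samples of one group, and p-values measure the spread between these samples. As library kits the methods name TruSeq Stranded mRNA (Illumina) and KAPA mRNA HyperPrep (Roche), without saying which libraries had which. The labels give no sequencing batch or date.

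The 8 sham libraries were fitted alone with limma (version 3.58.1, R version 4.3.3) on log2(normalized count + 1), letting the variance follow the mean (limma-trend). Genes entered the fit when 4 or more of these libraries reached a normalized count of 10. Fold changes on this scale understate those of low genes. The interaction was fitted over all 16 libraries. Single library measures were compared by exact two-sided permutation tests. The count models of edgeR 4.0.16 and DESeq2 1.42.0 on the recovered reads were alternatives, as were other pseudocounts, filters, scalings, thresholds, weights, the replicate number as a block, and leaving out each library. Removing trends with GC content and gene span was chosen only after seeing these data. The fits were tested on simulated counts with known changes.

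Positions, spans and GC content came from the GENCODE annotation on NCBIM37, to which 22372 of 22372 genes matched, and promoters from RefSeq on GRCm38.p6. Genes that share a symbol were told apart by identifier. The members, the gene lists and the mt-Nd6 share as a measure were chosen with earlier results of these data known. Genes named were the 10 largest changes per direction (mean of at least 50, no overlap between groups) and the 10 smallest adjusted p-values per direction, both without genes whose exons overlap a gene on the other strand over 20 times more abundant, the stress panel and 3 kinases, up to 6 called members of each list, 2 markers of each cell type, the 5 smallest adjusted p-values opposite an abundant gene and the 5 smallest for the interaction. Values of other list members, among them Pdk4, Fos, Nr4a1, Arntl, Cyp1b1, Ahrr, Tiparp, Fkbp5, Tsc22d3, Zbtb16, Nr3c1, Nr3c2, Slc25a20, Trdn, Jun, Lcn2, Ier3, Ndufa1, Dbp, Mybpc3 and Tcap, and those of Ckm were chosen after they were seen. Some genes of the rule are not reported here.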

Additional observations from a re-analysis of the deposited data

Results flagged for a closer look

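Of 236 groups of 4 sham libraries examined for one library far from the other 3 (Dixon's ratio above its 95% critical value), 15 had one, where chance gives about 1 in 20. Sham-Veh replicate 1 had 44102 normalized counts of Ankrd1, above 25500 to 28613 in the others. Sham-Veh replicate 4 had 4097 of Eng, 138 of Hcn4, 664 of Grk5 and a first principal component of -3.29, each the highest of its group and in a measure with a higher mean in Sham-THZ1. Sham-THZ1 replicate 1 was the highest of its group for Slc38a3 (2988), Mef2d (4800) and Acta2 (2358). Sham-THZ1 replicate 2 was the highest for Ifit1 (133), Vwf (1441), S100a8 (125), S100a9 (235) and the mt-Nd6 share (0.0756%). Sham-THZ1 replicate 3 was the lowest for Mt1 (1698) and Ifit3 (110).

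THZ1 had a different effect in TAC than in sham hearts by the interaction test of limma (adjusted p 0.00177 to 0.0444) for 29 named genes, of which the values are log2 effects after TAC minus those in sham hearts. It was below 0, a lower effect after TAC, for Lox (-3.65), Angptl4 (-3.52), Nr4a3 (-2.43), Atf3 (-2.24), Fn1 (-1.94), Hbegf (-1.80), Grk5 (-1.11), Fosl2 (-1.06), Btg2 (-0.93), Srxn1 (-0.71) and Eng (-0.52). It was above 0 for Cyp1a1 (5.34, which depends on the pseudocount, since 3 TAC-Veh libraries are at 0), Cxcl9 (1.91), Map2k6 (1.52), Magi3 (0.99), Per3 (0.87), Lmod3 (0.79), Cacnb2 (0.79), Chrm2 (0.76), Pik3ip1 (0.74), Ech1 (0.69), Ehbp1 (0.56), Nr1d2 (0.47) and Trdn (0.38). It was also above 0 for the genes opposite an abundant gene, 1700119I11Rik (3.35), AF085738 (1.56), A930016O22Rik (1.48), mt-Nd6 (1.42) and Map3k15 (0.96). The cause of these differences was not tested.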

How the results depend on the processing

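The counts of calls moved with the settings, while the directions of called named genes did not. Against 290 genes higher and 183 lower, a fit of all 16 libraries gave 3 and 6, DESeq2 over 16 libraries 13 and 21, removal of the GC trend 140 and 112 or of GC and span trends 147 and 111 (both added after the data had been seen), weights per library 451 and 316, an adjusted p under 0.01 37 and 28, under 0.1 606 and 422, and an added minimum log2 fold change of 0.5 gave 41 and 35, and DESeq2 on the sham reads gave 295 lower. Leaving out 1 library gave 73 to 632 higher and 48 to 377 lower genes: 73 and 48 without Sham-THZ1 replicate 1, 88 and 58 without replicate 2, 155 and 97 without replicate 4, 106 and 66 without Sham-Veh replicate 2, 86 and 55 without replicate 3, 632 and 377 without replicate 4, and 144 higher without replicate 1. Interactions numbered 666 (TAC-THZ1 replicate 2 left out) to 2451 (TAC-Veh replicate 3 left out) against 1304. The values for single measures were differences of 13.7 to 15.1 on the first component and of -0.0873 to -0.0704 percentage points in the mt-Nd6 share, for which the exact permutation test of 4 against 3 cannot go below p = 0.0571. The cause was not tested. With the replicate number as a block 259 genes were higher, 173 lower and 1108 had an interaction. Deviations from the group means had r = 0.00255, -0.0827, 0.00168 and -0.0200 between same-numbered sham libraries, and -0.0339 to 0.0665 between unlike-numbered ones. This check cannot tell whether same-numbered samples shared a litter, day or batch, and the labels do not say.

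Of 111 named genes 81 were called, and their 2103 values under alternatives held 1646 calls, 457 losses of the call and 0 reversals. Without each single library 38 stayed called. Reversals occurred only in genes with no call: Myh6 (-0.0026 with DESeq2, -0.0679 without GC and span trends, -0.0567 without the GC trend, -0.0093 without the span trend, -0.0021 with TMM, -0.0076 with weights, -0.0031 with edgeR, 0 with quantile scaling, -0.0015 without mitochondrial genes, -0.00087 with upper quartile scaling), Tnnt2 (-0.0428, -0.0379 and -0.0171 without GC and span, GC, and span trends), Pdgfra (-0.0023 with DESeq2, -0.0021 with weights, -0.0030 with edgeR, -0.0053 with quantile scaling) and Emr1 (0.0262, 0.0098 and 0.0107 without GC and span, GC, and span trends, 0.0093 with weights). With single libraries left out the ranges were -0.163 to 0.0799 for Nppa, -0.181 to 0.0159 for Postn, -0.0283 to 0.0294 for Myh6, -0.0073 to 0.0300 for Tnnt2, -0.0532 to 0.0551 for Pdgfra, -0.102 to 0.0928 for Emr1, -0.0496 to 0.105 for Pf4 and -0.0021 to 0.107 for Wt1. With 4 libraries a group, small changes in genes with few reads can be missed, and the smallest detectable change by read level was not computed.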
